A study of Mus musculus with 8 samples.

Results

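Genes that mark the alveolar epithelium were compared between lungs of 4 mice carrying a Fra-2 transgene (Fra-2 TG, labelled as over-expressing Fra-2) and lungs of 4 wild-type mice. All 8 mice were on the C57BL/6 background and 8 weeks old, and whole lung was sampled from each. The 36 genes were chosen by name from known markers of alveolar type 1 and type 2 cells, out of 20863 named genes on the array. They comprise 15 genes of type 2 cells, 13 genes of type 1 cells, 5 transcription factors of the lung epithelium, and the 3 subunits of the epithelial sodium channel, which both cell types use. Fra-2, encoded by Fosl2, is an AP-1 transcription factor, and the transgenic mice serve to model fibrosis of the lung with disease of its vessels. The labels do not name the promoter that drives the transgene.

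The alveolus is lined by 2 epithelial cell types. Type 2 cells are cuboidal, make and recycle surfactant, the mixture of lipids and proteins that lowers surface tension, and store it in lamellar bodies. They also divide and give rise to type 1 cells, the flat cells that cover most of the alveolar surface and across which gas is exchanged. Injury to type 2 cells and their incomplete conversion to type 1 cells are features of fibrotic lung.

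Expression was read by 1 single-colour Agilent array per mouse and is given as the log2 of the deposited normalised intensity, here called the level. For each gene the brightest of its spots was used. Levels of different genes are read by different probes and are not set against each other. The floor for dim signals was the median over all spots, 4.74, and the scale ends at 16. Of the 36 genes, 35 were above the floor on all 8 arrays, among them all 15 type 2 and all 13 type 1 genes, so the labelled tissue carried its defining alveolar markers. Scnn1g, the gamma subunit of the sodium channel, was under the floor in all 8 mice, from 1.41 to 4.46 in Fra-2 TG lungs and from 3.21 to 4.31 in wild-type lungs, so its difference is counted below but not read as a change. The brightest spots of Sftpa1, Sftpb, Sftpc and Sftpd came within 0.1 of the top of the scale on at least 1 array, where a spot can no longer show an increase. Lyz1, Emp2, Gprc5a and Sec14l3 came within 0.5 of the top on at least 1 array, where differences can be compressed.

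Each array's mean correlation with the others of its group, over all genes, was 0.984 to 0.985 for Fra-2 TG mice 1 to 3 and 0.979 for Fra-2 TG mouse 4, and 0.982 to 0.983 for wild-type mice 1 to 3 and 0.976 for wild-type mouse 4. Both mice numbered 4 thus stood apart, and values without them are given beside those they moved most. The targeted gene, Fosl2, has 2 spots that disagree. The brighter read 9.86 ± 0.59 in Fra-2 TG lungs and 10.61 ± 0.37 in wild-type lungs (SD, n = 4 each). The dimmer read 6.97 ± 0.64 in Fra-2 TG lungs and 4.52 ± 0.88, under the floor, in wild-type lungs (SD, n = 4 each). Its log2 difference was 2.45, with all 4 Fra-2 TG values above all 4 wild-type values (exact permutation p = 0.0286, two-sided). The brighter spot differed by -0.75 (exact permutation p = 0.0571, two-sided). The spots go in opposite directions, so this gene does not settle the genotype labels. The bulk tissue was measured whole, so fewer cells of a type and less RNA per cell cannot be told apart in any of the values below.

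None of the 36 alveolar genes passed the test for a difference between Fra-2 TG and wild-type lungs. Limma with Benjamini-Hochberg adjustment over all 20863 genes gave adjusted p-values from 0.268 (Spock2) to 1.00 (Sftpc), while 0.216% of all genes passed. The estimated log2 differences ran from -0.52 to 0.34 and were mostly negative. A lower mean in Fra-2 TG lungs was found for 30 of 36 genes (83.3%, against 47.6% of all genes). The median difference was -0.10, against 0.01 over all genes. Of the 31 above the floor and below the top of the scale, 26 had a lower mean. At an unadjusted limma p under 0.05, 4 were lower (11.1%, against 3.82% of all genes) and 0 were higher (against 5.33%). Values did not overlap between the groups for 3 genes, Spock2, Cebpa and Abca3, all lower in Fra-2 TG lungs (8.33%, against 2.54% of all genes), and none was higher without overlap (against 3.99%). The alveolar genes were chosen with earlier results of these data known and were read on the same 8 arrays. These shares therefore describe these mice and are not a test.

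**Figure D1:**
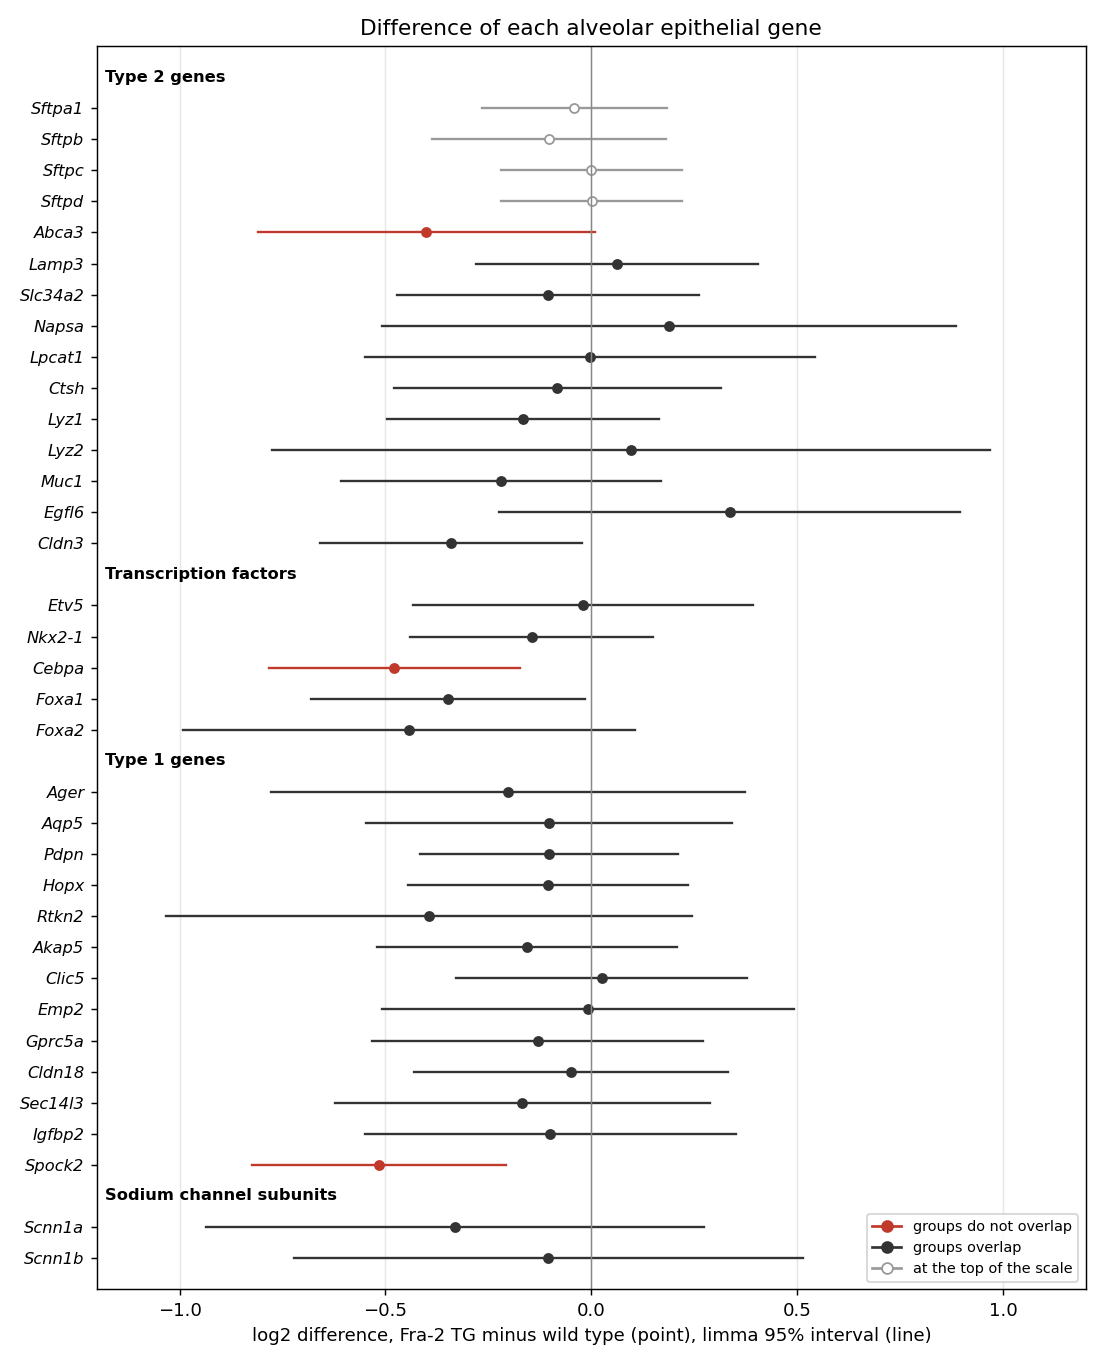
Log2 difference between Fra-2 TG and wild-type lungs for the 35 alveolar genes above the floor, with the limma 95% interval as a line; red marks genes whose 2 groups did not overlap and open grey circles mark genes at the top of the scale. Most points lie slightly left of 0, and the 3 red points are Spock2, Cebpa and Abca3.

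The precision of the comparison is given by the intervals. For the 31 genes above the floor and below the top of the scale, the limma 95% interval of the log2 difference lay within 1 in either direction for 30, so a 2-fold change lay outside it for all but Rtkn2 (-1.03 to 0.24). It lay within 0.5 in either direction for 10 of the 31. For the others it reached past 0.5 in at least 1 direction, with 4 mice in each group.

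Spock2, which encodes testican-2, a proteoglycan of the extracellular matrix that type 1 cells express, had the smallest p of the 36 genes. Its levels were 10.48, 10.45, 10.70 and 10.28 in Fra-2 TG mice 1 to 4, against 11.19, 10.96, 10.92 and 10.89 in wild-type mice 1 to 4. All 4 Fra-2 TG values lay below all 4 wild-type values. Spock2 averaged 10.48 ± 0.17 in Fra-2 TG lungs and 10.99 ± 0.14 in wild-type lungs (SD, n = 4 each), so that the log2 difference was -0.52 (SE 0.13), or 0.700 of the wild-type level. The limma adjusted p was 0.268. A two-sided exact permutation test gave 0.0286, the lowest p that this design can reach. The difference was -0.45 without Fra-2 TG mouse 4 and -0.48 without both mice numbered 4.

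Cebpa encodes C/EBP-alpha, a transcription factor that type 2 cells need for their maturation and that myeloid cells also express. It read 10.08, 9.84, 9.89 and 9.59 in Fra-2 TG mice 1 to 4, against 10.40, 10.36, 10.23 and 10.32 in wild-type mice 1 to 4. The 4 wild-type values lay close together, and every Fra-2 TG value was below the lowest of them. Means of 9.85 ± 0.20 in Fra-2 TG lungs and 10.33 ± 0.07 in wild-type lungs (SD, n = 4 each) gave a log2 difference of -0.48 (SE 0.13, limma adjusted p = 0.305, exact permutation p = 0.0286, two-sided). Without Fra-2 TG mouse 4 it was -0.39.

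Abca3 encodes the transporter that loads surfactant lipids into lamellar bodies. Levels of 14.15, 14.27, 14.12 and 13.55 were measured in Fra-2 TG mice 1 to 4, against 14.52, 14.33, 14.56 and 14.28 in wild-type mice 1 to 4. The groups did not overlap, but the highest Fra-2 TG value and the lowest wild-type value were nearly equal. The log2 difference was -0.40 (SE 0.18, limma adjusted p = 0.554, exact permutation p = 0.0286, two-sided), and it was -0.24 without Fra-2 TG mouse 4.

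**Figure D2:**
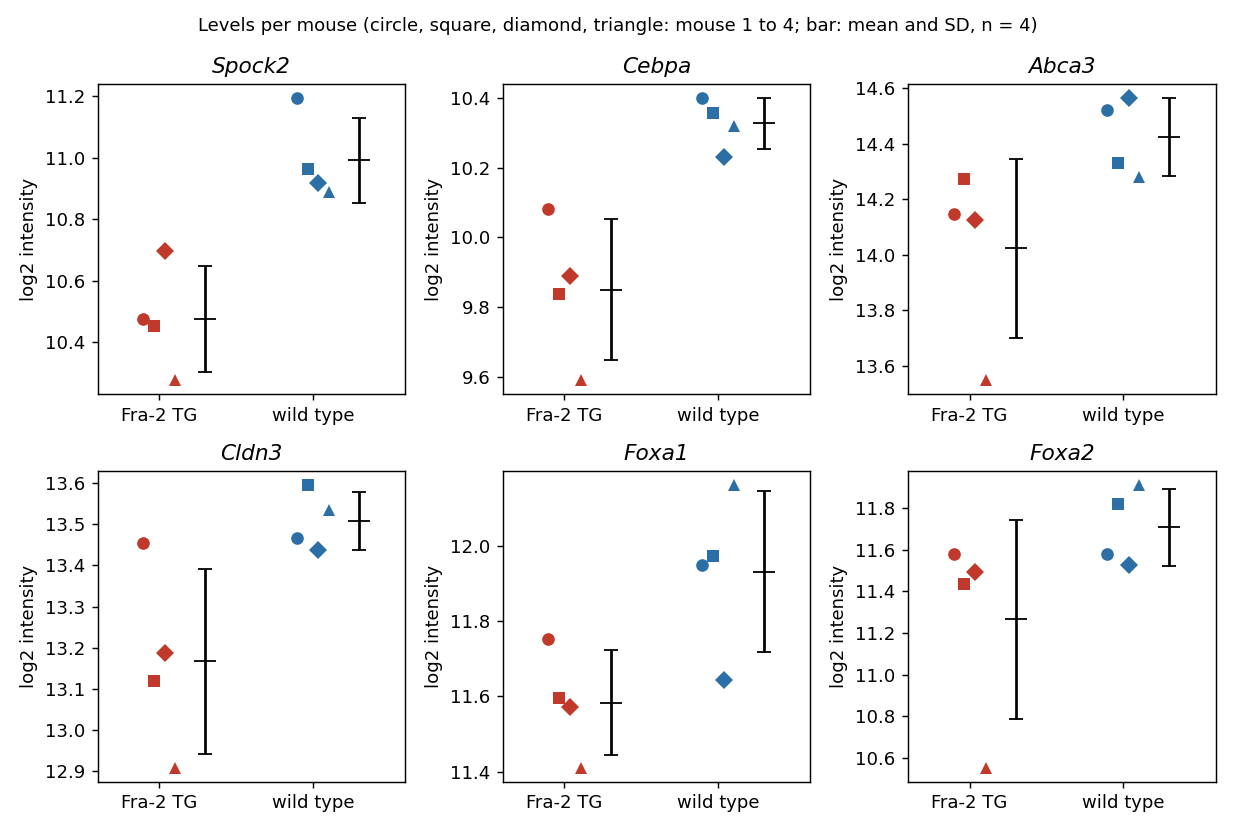
Log2 level per mouse (symbols) with group mean and SD (n = 4) for Spock2, Cebpa, Abca3, Cldn3, Foxa1 and Foxa2, Fra-2 TG to the left of wild type. The groups are separate in the first 3 panels; in the Foxa2 panel Fra-2 TG mouse 4 lies far below the other 3.

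Sequences upstream of a start site of these 3 genes are shown because their groups did not overlap and the transgene encodes an AP-1 protein. They are the 250 bases before a RefSeq start site on GRCm38.p6, 5′ to 3′ along the gene, with matches to any of 3 searched motifs in capitals. The Abca3 window runs past the first annotated base of the gene, 24351921, so part of it lies within the gene. The bases before that first base were not all searched.
Cebpa (chr7:35119043-35119292, plus strand): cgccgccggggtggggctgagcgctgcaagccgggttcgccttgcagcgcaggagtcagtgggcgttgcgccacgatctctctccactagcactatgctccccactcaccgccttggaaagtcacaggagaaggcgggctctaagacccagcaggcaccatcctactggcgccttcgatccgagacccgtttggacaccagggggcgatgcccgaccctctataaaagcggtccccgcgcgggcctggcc
Spock2 (chr10:60106007-60106256, plus strand): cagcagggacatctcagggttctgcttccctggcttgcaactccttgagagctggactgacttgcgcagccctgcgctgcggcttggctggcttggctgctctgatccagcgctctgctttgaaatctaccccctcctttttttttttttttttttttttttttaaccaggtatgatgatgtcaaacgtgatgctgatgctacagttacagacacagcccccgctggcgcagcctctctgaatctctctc
Abca3 (chr17:24351773-24352022, plus strand): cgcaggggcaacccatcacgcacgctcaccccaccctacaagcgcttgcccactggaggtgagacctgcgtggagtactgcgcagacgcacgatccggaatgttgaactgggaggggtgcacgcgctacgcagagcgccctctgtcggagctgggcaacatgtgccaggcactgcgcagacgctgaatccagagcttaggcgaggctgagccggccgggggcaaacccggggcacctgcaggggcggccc
None of the 3 windows held the letters of the AP-1 motif TGANTCA, the C/EBP motif TTGCNNAA or the FOXA motif TGTTTAC on either strand. This says only that these letters are not in these windows.

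Over the 36 alveolar genes, 29 had a window before a start site in the RefSeq table, and for genes with several windows there all were searched. Some windows lie wholly or partly within the annotated gene, among them those of Abca3, Ager, Akap5, Clic5, Foxa1 and Scnn1g. Not every annotated start was therefore searched. Sftpc, Sftpd, Napsa, Ctsh, Rtkn2, Gprc5a and Scnn1a had no entry. The AP-1 letters occurred in 2 of the 29, Sftpb and Igfbp2, against 7.82% of 27025 genes. Both are shown with the match in capitals. In Sftpb it spans bases -18 to -12 before the start site and in Igfbp2 bases -39 to -33, in 1 of its 2 windows. That Igfbp2 window lies within the annotated gene.
Sftpb (chr6:72304360-72304609, plus strand): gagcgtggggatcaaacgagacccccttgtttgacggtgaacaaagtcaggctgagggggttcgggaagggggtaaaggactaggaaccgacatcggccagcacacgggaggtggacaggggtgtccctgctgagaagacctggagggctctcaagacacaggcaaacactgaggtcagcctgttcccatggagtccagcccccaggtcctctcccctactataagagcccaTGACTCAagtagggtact
Igfbp2 (chr1:72825137-72825386, plus strand): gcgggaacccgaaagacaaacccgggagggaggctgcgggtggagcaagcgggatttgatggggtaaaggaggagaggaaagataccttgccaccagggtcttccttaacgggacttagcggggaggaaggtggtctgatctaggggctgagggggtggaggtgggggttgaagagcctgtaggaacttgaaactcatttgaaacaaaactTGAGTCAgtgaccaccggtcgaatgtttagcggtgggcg
The C/EBP letters occurred in 2 (Slc34a2 and Lyz1), against 10.8% of genes, and the FOXA letters in 4 (Lamp3, Etv5, Foxa1 and Pdpn), against 3.54% of genes. The Foxa1 match lies in a window within the annotated gene. No match overlapped another. A match is a description of the letters and not a measured binding site. The levels of Sftpb and Igfbp2 are given below, and neither gene passed the test.

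The surfactant proteins fall into a hydrophobic pair, Sftpb and Sftpc, which spread the lipid film, and the collectins Sftpa1 and Sftpd, which bind microbes and regulate surfactant. Sftpc was at the top of the scale on all 8 arrays. Sftpa1 ranged from 15.87 to 15.95 in Fra-2 TG lungs and from 15.92 to the top of the scale in wild-type lungs. Both lie at the end of the scale, so their small differences (0.00 for Sftpc and -0.04 for Sftpa1) do not measure a change or its absence.

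The brighter Sftpb spot read 15.59 in Fra-2 TG mouse 4 and 15.93 to 15.97 in the other 3, against 15.95 to 15.98 in wild-type lungs. Dimmer second spots allowed Sftpb and Sftpd to be read below the top of the scale. For Sftpb the dimmer spot gave 13.46, 13.48, 13.51 and 12.29 in Fra-2 TG mice 1 to 4, against 13.81, 13.71, 13.51 and 12.49 in wild-type mice 1 to 4. Mouse 4 was lowest by about 1 unit in both groups, and the groups overlapped. The log2 difference was -0.19 (SE 0.37), far from passing (limma adjusted p = 0.908 over all named spots). The dimmer spot of Sftpd gave 15.03, 14.94, 14.87 and 15.25 in Fra-2 TG mice 1 to 4, against 14.91, 15.16, 15.06 and 14.57 in wild-type mice 1 to 4. These also overlapped, with a difference of 0.10 (SE 0.16, limma adjusted p = 0.886 over all named spots). Fra-2 TG mouse 4 was the highest of its group for this spot, unlike for Sftpb.

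**Figure D3:**
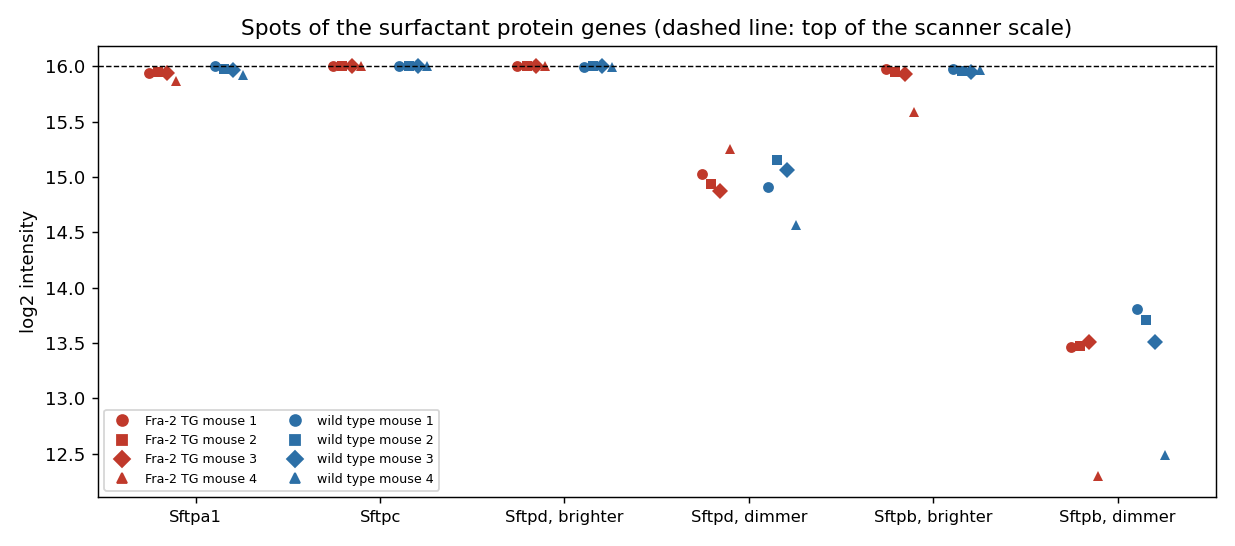
Log2 level of every spot of the surfactant protein genes in each mouse, Fra-2 TG (red) to the left of wild type (blue); the dashed line is the top of the scale at 16. The brighter spots lie at or near the line, apart from that of Sftpb in Fra-2 TG mouse 4 at 15.59, while the dimmer Sftpb spot shows mouse 4 lowest in both groups, at 12.29 in Fra-2 TG and 12.49 in wild type.

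Among the other genes of surfactant handling, Lamp3, a lamellar body membrane protein, differed by 0.06, Slc34a2, the phosphate transporter of type 2 cells, by -0.11, and Lpcat1, which remodels surfactant phospholipid, by -0.0031. None of the 3 was near the threshold (limma adjusted p from 0.876 to 0.999). Without Fra-2 TG mouse 4 the Slc34a2 difference was 0.0039, and without wild-type mouse 4 that of Lamp3 was -0.03. For Lpcat1, Fra-2 TG mouse 4 read 9.59 and the other 3 read 10.43 to 10.60, against 10.03 to 10.48 in wild-type lungs. Without Fra-2 TG mouse 4 its difference was 0.23, and it still did not pass (limma adjusted p = 0.721). Ctsh and Napsa encode the proteases cathepsin H and napsin A, which cleave the Sftpb precursor. Ctsh differed by -0.08 (SE 0.17), by -0.0074 without Fra-2 TG mouse 4 and by -0.22 without wild-type mouse 4. Napsa read 13.01, 12.77, 12.82 and 12.59 in Fra-2 TG mice 1 to 4, against 12.85, 13.03, 12.92 and 11.64 in wild-type mice 1 to 4. Its difference was 0.19 with all mice and -0.14 without wild-type mouse 4, which alone was low, so its direction rests on that mouse.

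Lyz2, a lysozyme made by type 2 cells and by macrophages, showed the same mouse even further apart. It read 14.45, 14.28, 14.30 and 14.31 in Fra-2 TG mice 1 to 4, against 14.59, 14.80, 14.61 and 12.96 in wild-type mice 1 to 4. With all mice the difference was 0.10, and without wild-type mouse 4 it was -0.33, with all 4 Fra-2 TG values below the remaining 3 wild-type values; it passed neither way (limma adjusted p = 0.960 and 0.402). Macrophage markers were also low in wild-type mouse 4: the mean level of 11 alveolar macrophage genes was 11.56 there, the lowest of all 8 mice (11.89 to 12.21 in Fra-2 TG lungs, up to 12.36 in wild-type lungs), and that of 9 other myeloid genes was 9.48 (10.14 to 10.61 in Fra-2 TG lungs, up to 10.58 in wild-type lungs). Of the 11 alveolar macrophage genes 8 had a higher and 3 a lower mean in Fra-2 TG lungs (median 0.20). The scavenger receptor gene Marco alone passed the limma test and was lower (-2.08, limma adjusted p = 0.0105), while Itgax, the integrin CD11c, was higher without overlap but did not pass (0.62, limma adjusted p = 0.430). Of the 9 other myeloid genes 6 had a higher and 3 a lower mean (median 0.12), and 0 passed. The part of these cells in the Lyz2 and Napsa values was not tested. Lyz1, the other lysozyme and a near copy of Lyz2 whose spot may read both, differed by -0.17 (SE 0.14).

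Of the remaining type 2 genes, Cldn3, a claudin of tight junctions, had 13.45, 13.12, 13.19 and 12.91 in Fra-2 TG mice 1 to 4, against 13.47, 13.60, 13.44 and 13.53 in wild-type mice 1 to 4. Only Fra-2 TG mouse 1 reached the wild-type range. The difference was -0.34 (SE 0.14, limma adjusted p = 0.513, exact permutation p = 0.0571, two-sided). Egfl6, a secreted protein with EGF-like repeats, had the largest positive difference of the 36, 0.34 (SE 0.24, limma adjusted p = 0.719), with 7.63 to 8.45 in Fra-2 TG lungs against 7.15 to 8.00 in wild-type lungs. Without wild-type mouse 4 the Egfl6 difference was 0.14. Muc1, a membrane mucin of the apical surface, differed by -0.22 (SE 0.17) and by -0.15 without Fra-2 TG mouse 4. Over all 15 type 2 genes 0 passed in limma (1 lower and 0 higher at an unadjusted p under 0.05), 10 had a negative difference, and the median was -0.04. That median is the Sftpa1 value, and over the 11 type 2 genes below the top of the scale it was -0.08, with 7 negative.

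The 5 transcription factors all had a lower mean in Fra-2 TG lungs, with a median of -0.35; 0 of 5 passed in limma, and Cebpa and Foxa1 were lower at an unadjusted p under 0.05. Foxa1 and Foxa2 are forkhead factors that act together in lung epithelium, in airway as well as alveolus. Foxa1 read 11.75, 11.60, 11.57 and 11.41 in Fra-2 TG mice 1 to 4, against 11.95, 11.97, 11.64 and 12.16 in wild-type mice 1 to 4. The groups overlapped only through wild-type mouse 3, and the difference was -0.35 (SE 0.15, limma adjusted p = 0.522, exact permutation p = 0.0571, two-sided), and -0.21 without both mice numbered 4. Foxa2 read 11.58, 11.44, 11.49 and 10.55 in Fra-2 TG mice 1 to 4, against 11.58, 11.82, 11.53 and 11.91 in wild-type mice 1 to 4. Its difference of -0.44 (SE 0.24, limma adjusted p = 0.632) was -0.21 without Fra-2 TG mouse 4, the lowest of the 8, and -0.14 without both mice numbered 4. A second Foxa2 spot gave -0.45.

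Nkx2-1, the homeodomain factor that specifies lung epithelium and drives the surfactant protein genes, was read by 10 spots. All 10 had a lower mean in Fra-2 TG lungs, from -0.32 to -0.03, although repeat spots share the same RNA and are not independent. The brightest spot read 11.15 ± 0.16 in Fra-2 TG lungs and 11.30 ± 0.12 in wild-type lungs (SD, n = 4 each), a difference of -0.14 (SE 0.13, limma adjusted p = 0.775). Etv5, an ETS factor that in the mouse keeps type 2 cells in their state, differed by -0.02, and by 0.13 without Fra-2 TG mouse 4. Markers of epithelium in general were read beside these factors. Of 9 pan-epithelial genes all 9 had a lower mean in Fra-2 TG lungs (median -0.28), against 47.6% of all genes. The mean level of the 9 was 10.94 to 11.16 in Fra-2 TG lungs and 11.09 to 11.53 in wild-type lungs. It was highest in wild-type mouse 4, and the median difference without that mouse was not computed. In limma 0 passed and 2, Krt8 and Esrp1, were lower at an unadjusted p under 0.05, against 3.82% of all genes. Of 8 ciliated airway cell genes all 8 had a lower mean too (median -0.29), with 0 past the limma test and 1, Tppp3, lower at that level. Their mean level was 11.28 to 11.75 in Fra-2 TG lungs and 11.41 to 12.35 in wild-type lungs, highest in wild-type mouse 4 and lowest in Fra-2 TG mouse 4. Of 8 club airway cell genes 6 had a lower and 2 a higher mean (median -0.08), with 0 past the limma test and 1, Bpifa1, higher at that level and without overlap (1.39, limma adjusted p = 0.454). The part of airway epithelium in the transcription factor values was not tested.

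Type 1 cell genes differed little. Of 13 genes, 12 had a lower mean in Fra-2 TG lungs, with a median of -0.10. In limma 0 passed, and Spock2 alone was lower at an unadjusted p under 0.05. Ager, the receptor for advanced glycation end products and a defining marker of type 1 cells, read 13.69, 13.78, 13.76 and 13.01 in Fra-2 TG mice 1 to 4, against 14.07, 13.96, 13.84 and 13.18 in wild-type mice 1 to 4. Mouse 4 was lowest in both groups, and the other 3 Fra-2 TG values lay below the other 3 wild-type values by a small margin. The Ager difference was -0.20 (SE 0.25, limma adjusted p = 0.844), -0.02 without Fra-2 TG mouse 4 and -0.21 without both mice numbered 4. Aqp5, a water channel, differed by -0.10, Hopx, a homeodomain-only protein, by -0.10, and Clic5, a chloride intracellular channel protein, by 0.02 (limma adjusted p from 0.865 to 0.980). Without Fra-2 TG mouse 4 these differences were 0.07 for Aqp5, 0.0098 for Hopx and 0.14 for Clic5.

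Rtkn2 had the widest interval of the type 1 genes. It read 10.01, 9.97, 10.02 and 9.13 in Fra-2 TG mice 1 to 4, against 10.45, 10.07, 10.57 and 9.62 in wild-type mice 1 to 4. The first 3 Fra-2 TG mice lay close together, below the first 3 wild-type mice and above wild-type mouse 4. The difference of -0.39 (SE 0.28, limma adjusted p = 0.711) became -0.18 without Fra-2 TG mouse 4 and -0.58 without wild-type mouse 4. Akap5, which anchors protein kinase A, differed by -0.16, Gprc5a, an orphan receptor induced by retinoic acid, by -0.13, and Sec14l3, a lipid-binding protein of the Sec14 family, by -0.17. For all 3 Fra-2 TG mouse 4 was below the rest, and without it the differences were -0.04 for Akap5, 0.03 for Gprc5a and 0.02 for Sec14l3. A dimmer Sec14l3 spot, further from the top of the scale, differed by -0.33 (limma adjusted p = 0.705 over all named spots). It read 10.92 in Fra-2 TG mouse 4 and 11.62 to 11.95 in Fra-2 TG mice 1 to 3, against 11.74 to 12.13 in wild-type lungs. Emp2, a membrane protein of the tetraspan type, differed by -0.0084 at its brighter spot and by -0.25 at its dimmer one, which lies further from the top of the scale; neither passed (limma adjusted p = 0.996 over all genes and 0.693 over all named spots). The brighter spot differed by 0.14 without Fra-2 TG mouse 4 and by -0.18 without wild-type mouse 4.

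Pdpn, podoplanin, coats type 1 cells and is also a marker of lymphatic endothelium and mesothelium. Its brighter spot read 13.55 ± 0.11 in Fra-2 TG lungs and 13.66 ± 0.20 in wild-type lungs (SD, n = 4 each), a difference of -0.10, and its dimmer spot differed by 0.12, so the 2 spots disagreed in direction. Without wild-type mouse 4 the brighter spot differed by -0.0090. Lymphatic endothelial genes were read beside it: all 5 measured had a higher mean in Fra-2 TG lungs (median 0.34, 0 past the limma test and 1, Lyve1, higher at an unadjusted p under 0.05; Reln was under the floor). Of 7 mesothelial genes 4 had a higher and 3 a lower mean (median 0.07, 0 past the limma test), with Calb2 under the floor. The part of these cells in the Pdpn values was not tested. Cldn18, the claudin of alveolar tight junctions, differed by -0.05 (SE 0.17) and by -0.13 without wild-type mouse 4. Igfbp2, an insulin-like growth factor binding protein of mature type 1 cells in the mouse, read 11.75, 11.55, 12.07 and 12.19 in Fra-2 TG mice 1 to 4, against 11.64, 12.07, 11.94 and 12.30 in wild-type mice 1 to 4. Here mouse 4 was the highest of its group in both groups, and the difference was -0.10 (SE 0.20, limma adjusted p = 0.907), -0.20 without Fra-2 TG mouse 4 and 0.0038 without wild-type mouse 4.

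**Figure D4:**
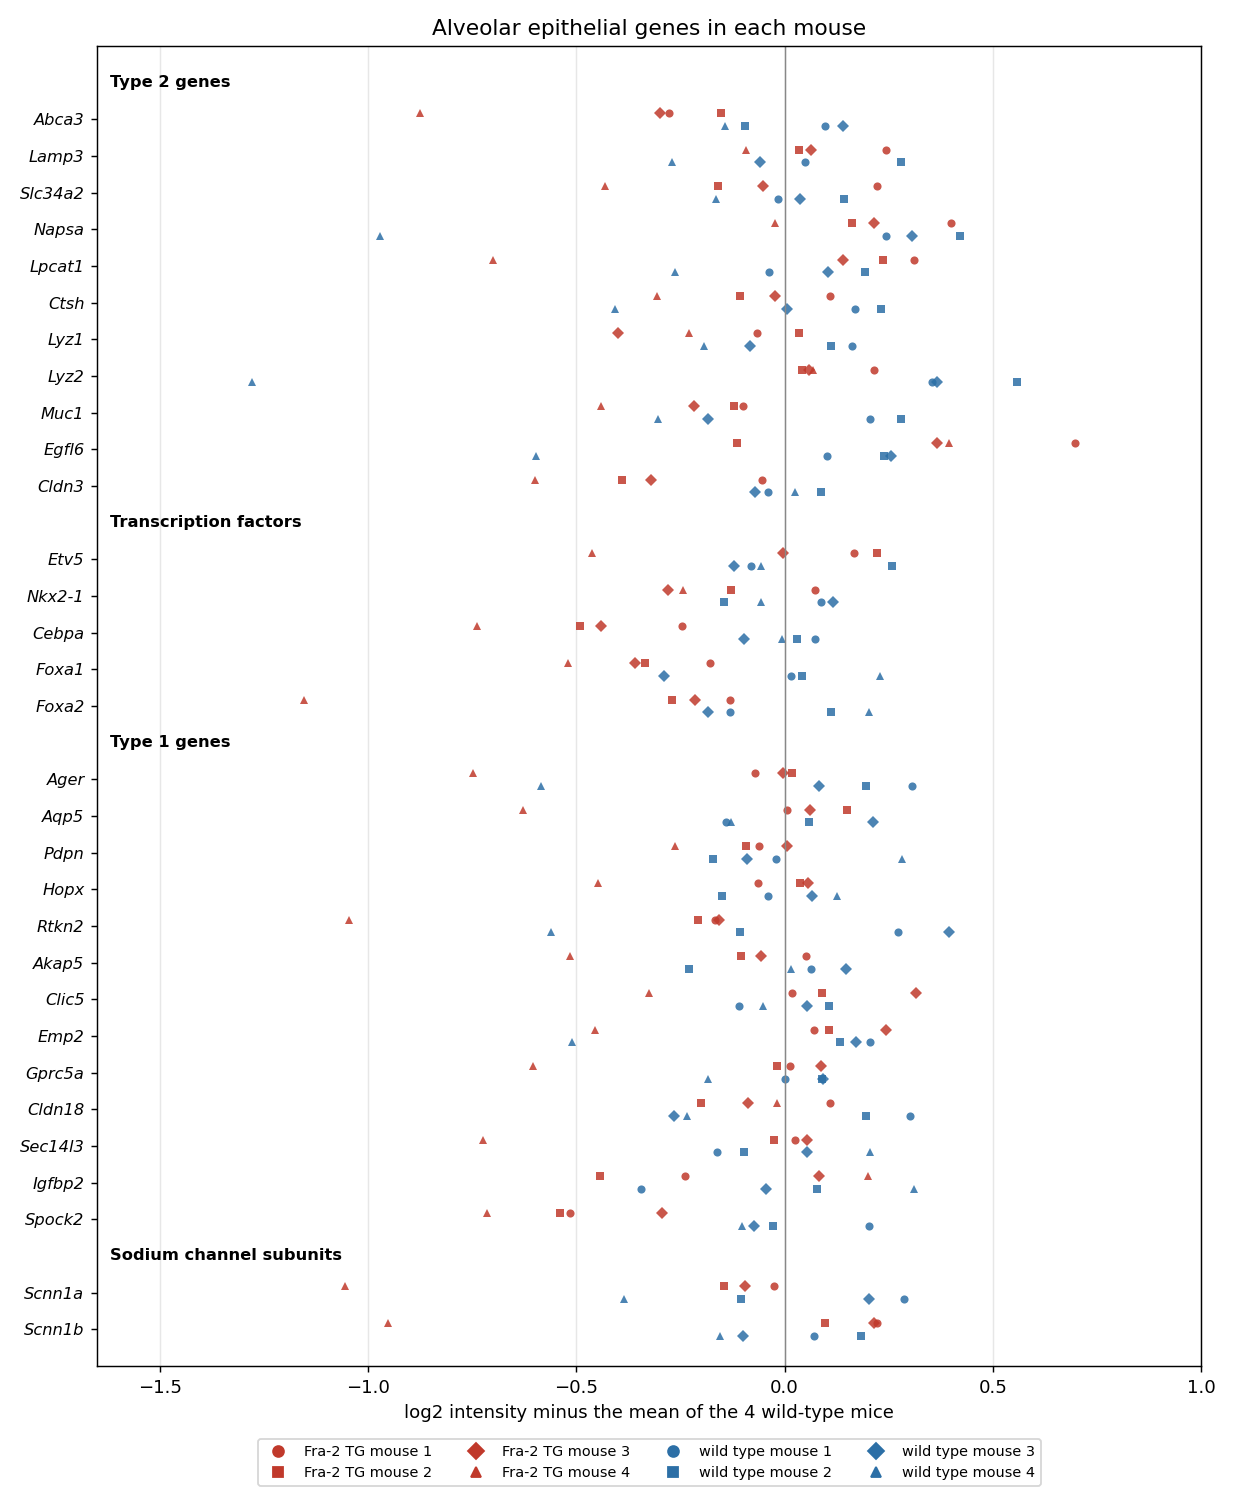
Log2 level of each alveolar gene in each mouse, minus the mean of the 4 wild-type mice, for the 31 genes above the floor and below the top of the scale; red is Fra-2 TG, blue is wild type, and triangles are the mice numbered 4. The red triangle is the lowest of the 8 points in 21 of the 31 genes.

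The sodium channel that clears alveolar fluid is built from alpha, beta and gamma subunits. Scnn1a, the alpha subunit, read 13.79, 13.67, 13.72 and 12.76 in Fra-2 TG mice 1 to 4, against 14.10, 13.71, 14.01 and 13.43 in wild-type mice 1 to 4. Scnn1b, the beta subunit, read 10.94, 10.82, 10.94 and 9.77 in Fra-2 TG mice 1 to 4, against 10.79, 10.90, 10.62 and 10.57 in wild-type mice 1 to 4. For both subunits Fra-2 TG mouse 4 was about 1 unit below the other 3. The Scnn1a difference was -0.33 (SE 0.26, limma adjusted p = 0.744) and -0.09 without that mouse, and the Scnn1b difference was -0.10 (SE 0.27, limma adjusted p = 0.934) and 0.18 without it.

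Fra-2 TG mouse 4 had low levels of many of these genes. It was the lowest of the 4 Fra-2 TG mice in 25 of the 31 alveolar genes (80.6%), against 38.9% of 14206 genes above the floor. It was the lowest of all 8 mice in 21 (67.7%), against 21.5% of those 14206 genes. Wild-type mouse 4 was the lowest of all 8 in 6 (19.4%), against 26.6% of genes above the floor. Relative to the wild-type mean, the median over 13 type 1 genes was -0.52 in Fra-2 TG mouse 4, and 0.0058, -0.02 and 0.05 in Fra-2 TG mice 1 to 3. The median over 11 type 2 genes was -0.31 in Fra-2 TG mouse 4 and 0.22, -0.11 and -0.02 in the other 3, and -0.27 in wild-type mouse 4. The 5 transcription factors differed from this pattern in that their medians were negative in all 4 Fra-2 TG mice, at -0.13, -0.27, -0.28 and -0.52. In wild-type mice 1 to 4 these medians were 0.02, 0.04, -0.12 and -0.0065, so Fra-2 TG mouse 1 lay close to wild-type mouse 3.

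**Figure D5:**
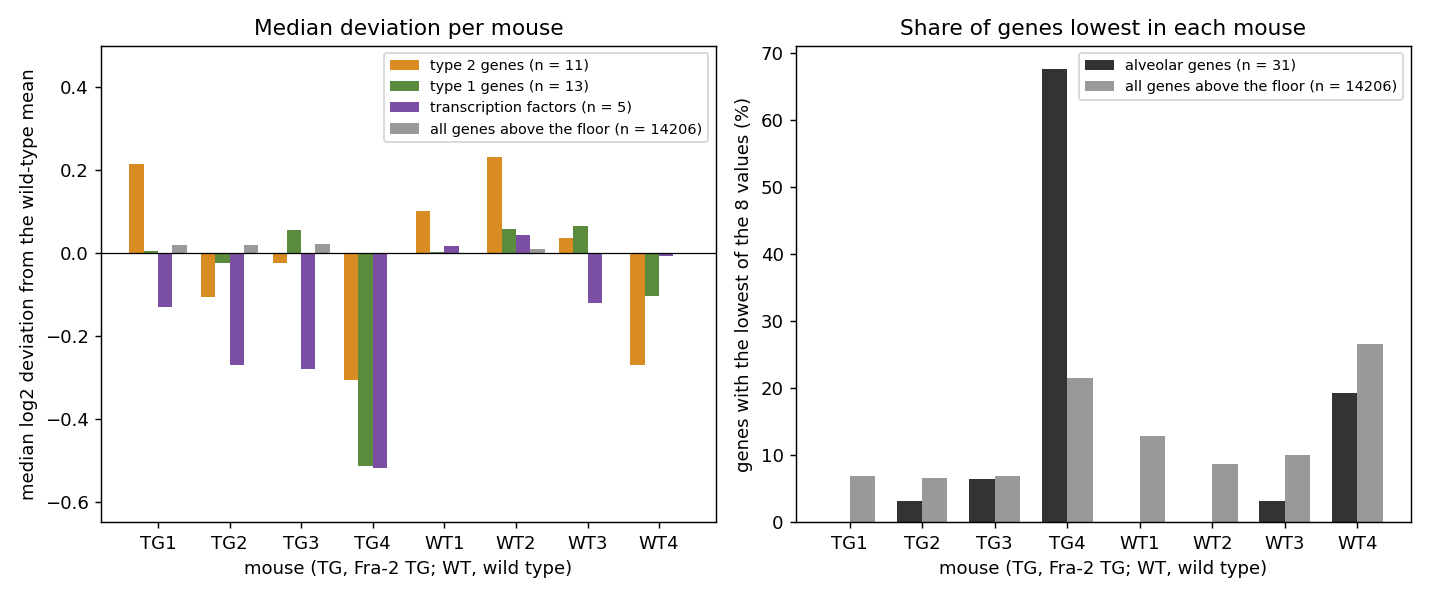
Left, median log2 deviation from the wild-type mean per mouse for type 2 genes, type 1 genes, transcription factors and all genes above the floor; right, percent of genes whose lowest value of the 8 lies in each mouse. Fra-2 TG mouse 4 holds the lowest value of 67.7% of the alveolar genes, against 21.5% of all genes above the floor.

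The negative directions rested in part on that mouse. Without Fra-2 TG mouse 4, 21 of the 36 genes had a negative difference in place of 30, with medians of -0.02 for type 1 genes and 0.0039 for the 11 type 2 genes below the top of the scale, and 4 of the 5 transcription factors stayed negative with a median of -0.21. Without wild-type mouse 4, 32 of 36 were negative. Without both mice numbered 4, 25 of 36 were negative, with medians of -0.03 for type 1 genes, -0.14 for those 11 type 2 genes and -0.14 for the transcription factors. The share of all genes with a negative difference was not computed with mice left out, so these counts have no background beside them. Markers of some other cells also stood apart in Fra-2 TG mouse 4, although 0 of the lymphocyte, mesothelial and cardiac genes passed the limma test between the groups. Some of these lists also differed in direction between the groups. All 6 lymphocyte genes had a higher mean in Fra-2 TG lungs (median 0.81), 4 of them at an unadjusted limma p under 0.05, against 5.33% of all genes. All 6 cardiac genes had a lower mean (median -0.48), 2 of them at that level, against 3.82% of all genes. The mean level of 6 T and B lymphocyte genes was 10.13 in Fra-2 TG mouse 4, the highest of the 8 (from 9.29 in Fra-2 TG lungs, and 8.16 to 9.32 in wild-type lungs), and that of 7 mesothelial genes was 9.05, also the highest. The 6 cardiac muscle genes had a mean level of 8.82 there, the lowest of the 8 (up to 10.93 in Fra-2 TG lungs, and 10.52 to 11.68 in wild-type lungs). The mean level of 8 mesenchyme and smooth muscle genes was also the lowest there, 12.55, against 12.77 to 12.96 in wild-type lungs. That of 8 endothelial genes, 12.08, was the lowest of the Fra-2 TG mice but lay within the wild-type range of 11.84 to 12.33. For 9 pan-epithelial genes (10.98) and 8 club airway cell genes (14.48) this mouse lay within the range of the other Fra-2 TG mice. For 15 genes of the transitional state between type 2 and type 1 cells it was the highest of the 8 by little. It read 11.215 there, against up to 11.208 in wild-type lungs. For 9 other myeloid genes it was also the highest, at 10.61. The part of these cells in the low alveolar levels of this mouse was not tested.

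Other genes of the same cells and pathways were examined in lists, and none of their genes passed the limma test over all genes. Of 13 further type 2 genes an unadjusted p under 0.05 was reached by 1 that was higher and 0 that were lower (median -0.01). That gene was Fabp5, a fatty acid binding protein, at 14.65 ± 0.15 in Fra-2 TG lungs and 14.03 ± 0.48 in wild-type lungs (SD, n = 4 each; 0.62, limma adjusted p = 0.481); next by p were Rab27a (-0.39) and Elovl1 (0.36). Of 21 genes of surfactant lipid synthesis 1 was higher and 0 lower at that level (median -0.03). Scd1, the desaturase that makes monounsaturated fatty acids, read 15.09 ± 0.23 in Fra-2 TG lungs and 14.49 ± 0.10 in wild-type lungs (SD, n = 4 each), without overlap (0.61, SE 0.14, limma adjusted p = 0.220); Chka differed by -0.27 and Srebf1 by -0.32. Fat tissue and other lung cells also express Scd1 and Fabp5.

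Among 16 further type 1 genes an unadjusted p under 0.05 was reached by 2 that were higher and 2 that were lower (median -0.06). Lmo7, an adaptor of cell junctions, differed by -0.60 (SE 0.18, limma adjusted p = 0.357), Aqp1, a water channel mainly of endothelium, by 0.42, and S100a6, a calcium-binding protein, by 0.31. Of 15 genes of the transitional state between type 2 and type 1 cells, 0 were higher and 2 lower at that level (median 0.09): Sfn, 14-3-3 sigma, differed by -0.74 (SE 0.22, limma adjusted p = 0.351) and the keratin gene Krt8 by -0.40 (SE 0.13, limma adjusted p = 0.409), followed by Krt18 at -0.32. Of 15 regulators of alveolar development 1 was higher and 0 lower at that level (median -0.20). It was Wwtr1, which encodes the Hippo pathway effector TAZ, with 11.80 ± 0.11 in Fra-2 TG lungs and 11.10 ± 0.23 in wild-type lungs (SD, n = 4 each), without overlap (0.70, SE 0.14, limma adjusted p = 0.171). Klf5 and Fgf10 of that list differed by -0.35 and -0.34. Of 8 genes of surfactant clearance 2 were higher and 0 lower at that level (median -0.01). Csf2, which encodes the ligand GM-CSF, differed by 0.99 (SE 0.23, limma adjusted p = 0.217). Csf2rb, its receptor's beta chain, differed by 0.45, and Spi1 by -0.41. Which cells of the lung expressed Csf2 was not tested.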

How the data were processed

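Lung RNA of 4 Fra-2 TG and 4 wild-type mice was labelled with Cy5 and hybridised to single-colour Agilent arrays, per the labels. The table the authors deposited holds linear intensity for 62976 spots. R 2.15.1 with limma 3.14.4 was used per the submitters' processing notes; how the values were normalised is not given in the sources used here. Median (log2 4.74) and mean were the same on all arrays, as quantile normalization leaves them. Spot flags were not used here.

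Platform symbols (31465 spots) were updated through RefSeq accessions to GRCm38.p6, and the spot with the highest mean stood for each of 20863 genes. Log2 values were fitted by limma 3.58.1 under R 4.3.3, in a model with no term but group, with Benjamini-Hochberg adjustment (threshold 0.05). Differences are Fra-2 TG minus wild type, with moderated SE. Single values were also tested by exact permutation. The fit was tested on simulated data. Every alveolar gene is named, and of each pathway list the 3 genes with the smallest p. Members and lists were chosen with earlier results of these data known. Replicates are separate animals, per the series design. Motif letters were searched in RefSeq upstream windows. Figures used matplotlib 3.10.9. Precision is limited by the number of arrays.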

Additional observations from a re-analysis of the deposited data

Results flagged for a closer look

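In 76 groups of 4 values (36 alveolar genes and the dimmer spots of Sftpb and Sftpd, in each genotype), 17 held 1 mouse far from the other 3, by the gap to its nearest neighbour over the whole range of the group. The nominal rate of this cut-off is about 5% of groups, and the share over all genes on these arrays was not computed. Over 14206 genes above the floor, Fra-2 TG mouse 4 was the lowest of its group in 38.9% and wild-type mouse 4 in 36.9%. For the 31 alveolar genes above the floor and below the top of the scale these shares were 80.6% and 54.8%. Being the lowest is not the gap rule, so these shares are no background for the 17 groups. Whether the 17 groups are particular to alveolar genes was not tested. Of the 17, Fra-2 TG mouse 4 was the mouse apart, and the lowest, in 11. The gap made up 0.882 of the range for Sftpa1, 0.885 for Sftpb, 0.959 for its dimmer spot, 0.831 for Lpcat1, 0.863 for Foxa2, 0.884 for Ager, 0.944 for Rtkn2, 0.846 for Gprc5a, 0.899 for Sec14l3, 0.883 for Scnn1a and 0.893 for Scnn1b. Wild-type mouse 4 was the lowest of its group for Napsa (0.873), Lyz2 (0.888) and Emp2 (0.898). The others were Lyz2 in Fra-2 TG lungs, highest in mouse 1 (0.849), Etv5 in wild-type lungs, highest in mouse 2 (0.831), and Sftpc in wild-type lungs, lowest in mouse 2 (1), where all values lie at the top of the scale and the range is too small to be read. The Sftpa1 values also lie close to the top of the scale, with a range of 0.073, and both Sftpb spots read the same RNA. These groups share 8 arrays, so they are not independent of each other.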

How the results depend on the processing

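None of the 36 alveolar genes passed in limma under any of the 20 alternatives. The medians of type 1 and type 2 genes moved by less than the SD between mice of each mouse's median level. That SD is not the error of a difference, so it does not show these medians to be stable. Without Fra-2 TG mouse 4 the type 1 median was -0.02 in place of -0.10. The type 2 median was -3.8e-05 without Fra-2 TG mouse 4 and -0.14 without wild-type mouse 4, in place of -0.04. With genes at the top of the scale left out it was -0.08. That setting was added after the data were seen, as were the medians without these genes and without mice numbered 4. Spock2 and Cebpa had a negative difference throughout, with adjusted p-values from 0.118 to 0.508 and from 0.155 to 0.552. The 45 genes called in the whole table became 71 with only genes above the floor, 80 and 88 with offsets of 16 and 32, 118 with trend and robust variance, 100 with array weights, 17 to 38 with 1 mouse left out, 17 without both mice numbered 4 and 200 without both and with the offset of 32. With the mouse number as a replicate block the count was 5. Deviations of mice sharing a number correlated at 0.14, -0.01, 0.15 and 0.08 for numbers 1 to 4. No reference spread was set beside these correlations, so they cannot tell whether such mice share more than a number. The labels do not pair the mice, and the main fit left the number out.

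Differences near 0 changed sign. Pdpn was 0.0063 as the mean of its spots and 0.12 at the spot of largest variance. Array weights gave 0.087 for Lpcat1, -0.20 for Lyz2, 0.068 for Etv5, 0.0040 for Pdpn, 0.0044 for Sec14l3 and 0.066 for Scnn1b. Without both mice numbered 4, and again with the offset of 32 besides, differences were -0.065 and -0.065 for Napsa, 0.14 and 0.14 for Lpcat1, -0.32 and -0.32 for Lyz2, 0.11 and 0.11 for Etv5, 0.029 and 0.029 for Aqp5, 0.044 and 0.044 for Pdpn, 0.051 and 0.051 for Hopx, 0.087 and 0.087 for Sec14l3 and 0.13 and 0.12 for Scnn1b. With 1 mouse left out in turn, ranges across 0 were -0.027 to 0.16 for Lamp3, -0.21 to 0.0039 for Slc34a2, -0.14 to 0.33 for Napsa, -0.11 to 0.23 for Lpcat1, -0.33 to 0.28 for Lyz2, -0.10 to 0.13 for Etv5, -0.19 to 0.072 for Aqp5, -0.16 to 0.0098 for Hopx, -0.072 to 0.14 for Clic5, -0.18 to 0.14 for Emp2, -0.20 to 0.027 for Gprc5a, -0.14 to 0.051 for Cldn18, -0.24 to 0.018 for Sec14l3, -0.21 to 0.015 for Igfbp2, -0.21 to 0.18 for Scnn1b and -0.79 to 0.22 for Scnn1g, which is under the floor and is not read as a change. The cause of these changes of sign was not tested beyond which mouse or spot was used. Quantile normalization and median centring left the values as they were, since the arrays already shared 1 distribution.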
